A study of Mus musculus with 9 samples.

Results

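Serpins are a large family of protease inhibitors, and the table of gene levels in mouse ear skin lists 65 of them among 25124 genes. They were taken by name, as every row whose symbol begins with Serpin, and no measured value entered that choice. By the letter after the prefix, which gives the clade, 26 belong to clade a, 28 to clade b, 3 to clade e, 2 each to clades f and i, and 1 each to clades c, d, g and h. The study profiled whole ear tissue of C57BL/6 mice by RNA sequencing in 9 libraries, and all of the mice carried Staphylococcus epidermidis strain LM087, swabbed onto the skin every other day until tissue was taken on day 8. In 5 libraries the mice had the bacterium alone (Sepi), and in 4 they had also been given anti-CTLA-4, an antibody that blocks a brake on T cell activation (Sepi_aCTLA4). Skin without the bacterium was not analysed here, and no source used here gives the animals' age or sex or the antibody's clone and dose. Replicates carry numbers only, and nothing says that they came from different animals, so each p-value below reflects the scatter among these libraries, part of which may be technical.

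An inhibitory serpin offers a flexible reactive loop to its protease as bait. When the protease cuts the loop, the serpin snaps into a more stable fold and drags the enzyme along, so that both are spent in a covalent complex. Most clades are secreted into plasma or tissue fluid, where they restrain clotting, fibrinolysis, complement and neutrophil proteases, whereas clade b members stay mostly inside cells and are prominent in keratinocytes and leukocytes. A few members have lost inhibition and serve other ends, such as the collagen chaperone Serpinh1.

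The deposited values are TPM, a length-scaled level, but the length in the table is the genomic span of the gene with its introns. TPM multiplied by this span came out as a whole multiple of 1 constant per library, within 0.1 reads, for 99.9% of 138349 values above 0 in genes spanning less than 50000 bases. Read numbers per gene could therefore be recovered, and they summed to between 10213769 and 13868668 reads per library. A gene with long introns therefore appears lower in TPM than it is beside a compact one. TPM is also relative within a library, and the ribosomal gene Rn45s with Mir6236 took 32.4% to 37.7% of it with the bacterium alone and 30.6% to 40.2% with anti-CTLA-4, which moves the TPM of every other gene. After scaling without the 50 most abundant genes, the 9 serpin genes called below were still called. Levels are compared between genes below as RPKM, computed from the recovered reads with the length of the longest GENCODE M21 transcript and the reads of the library. No source used here says whether reads in introns were counted.

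Of the 65 serpin genes, 34 had at least 1 TPM in at least 4 libraries and were tested. With anti-CTLA-4, 3 rose (Serpina3n and Serpinb6b among them) and 6 fell (Serpinb7, Serpina12, Serpina3b, Serpinb11, Serpinb2 and Serpinb5) at a Benjamini-Hochberg adjusted p under 0.05 by limma on log2(TPM + 1). That is 26.5% of the tested serpin genes, where 11.6% of all 15704 tested genes were called (7.16% higher and 4.48% lower). Serpinb6b passed the expression filter through its 4 anti-CTLA-4 libraries (1 other also reached 1 TPM), and a fit without that filter did not call it (limma adjusted p = 0.0569), so its rise supports nothing here. Over the tested serpin genes, the median log2 fold change was -0.027, against -0.014 over all tested genes, and the estimate was positive for 17 and negative for 17. Group ranges were separate for 4 higher and 7 lower serpin genes, where this held for 14.4% of all tested genes (8.02% higher and 6.39% lower). Without anti-CTLA-4 replicate 1, 3 or 4 only 1 serpin gene was called higher. Over all tested genes these fits called 918, 706 and 876 higher, against 1124 with every library. Without anti-CTLA-4 replicate 2 only 3 serpin genes were called lower (Serpina12, Serpinb7 and Serpinb8). Over all tested genes 406 were then called lower, against 704 with every library. A limma voom fit to the recovered reads, chosen after the data were seen, called 17 of 36 serpin genes (8 higher and 9 lower, with the 9 genes called by limma on TPM among them), where it called 18.8% of 16500 genes. Limma on transcript-length RPKM, also added then, called 13 of 31 serpin genes, against 17.8% of all genes. Without the expression filter 6 of 59 were called against 6.9%, among protein-coding genes alone 12 of 33 against 14.7%, and with the replicate number as a block 2 of 34 against 4.34%.

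**Figure D1:**
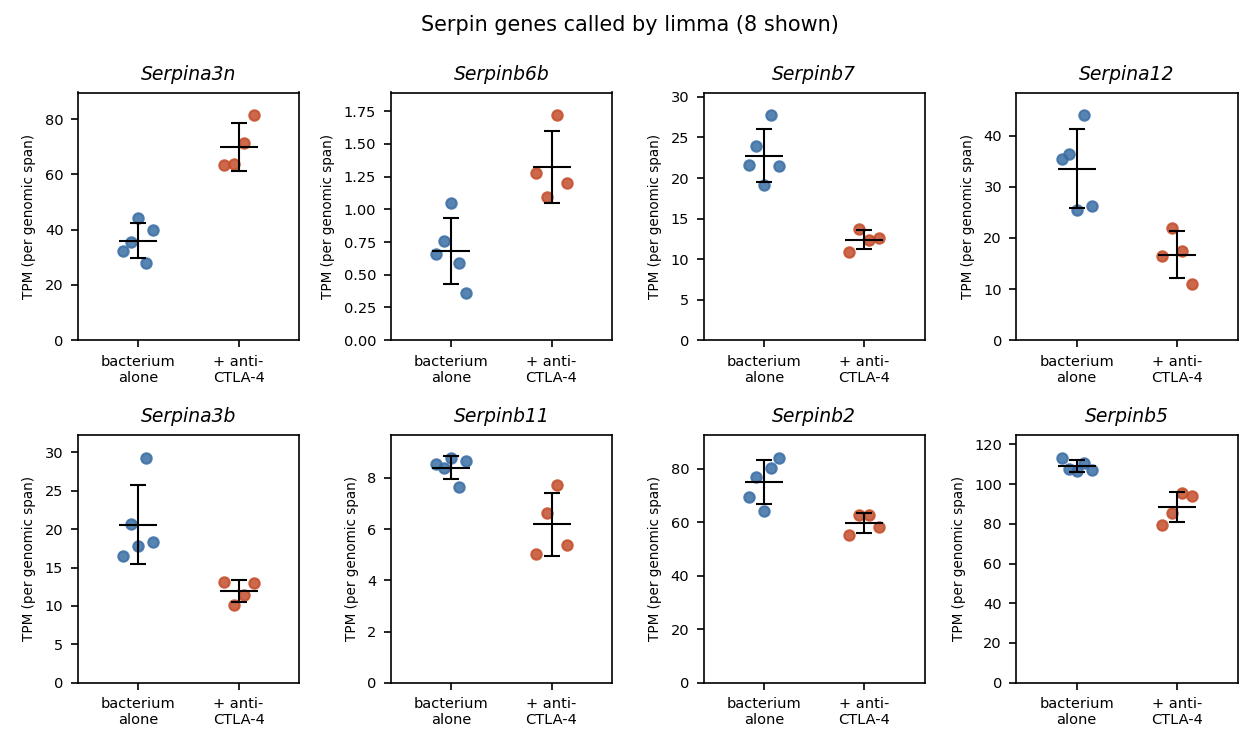
TPM per genomic span (vertical axes, each starting at 0) in the 5 libraries of the bacterium alone and the 4 with anti-CTLA-4, for 8 serpin genes called by limma; points are libraries, and bars are the mean ± SD. The groups overlap for Serpinb11 and for none of the other 7 shown, and Serpina3n lies between 27.9 and 44.2 TPM in one group and between 63.3 and 81.5 TPM in the other.

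Marker RNA of several cell types differed between the groups, and in bulk tissue more cells of a type cannot be told apart from more RNA per cell. All 10 pan-leukocyte markers rose, and their summed level was 163 to 221 TPM with the bacterium alone and 399 to 506 TPM with anti-CTLA-4. T cell markers summed to 111 to 140 and 180 to 223 TPM (9 of 10 called higher). Thy1 alone averaged 97.7 and 131 TPM, the larger part of these T cell sums. Cd6, also called, reached at most 0.672 TPM with the bacterium alone and passed the expression filter only through its anti-CTLA-4 libraries. Markers of monocytes and macrophages summed to 336 to 505 and 599 to 900 TPM (9 of 10). Those of mast cells summed to 164 to 234 and 279 to 288 TPM (4 of 8). The 10 neutrophil markers summed to 111 to 1484 and 1524 to 4470 TPM, but S100a8 and S100a9, which keratinocytes also make, held 81.9% to 98.9% of that sum and were not called. The 8 others summed to 14.8 to 27.2 and 41.8 to 53.4 TPM, and 5 of the 7 tested markers were called higher. Among those called, Fpr2 and Retnlg averaged only 0.454 and 0.771 TPM with the bacterium alone. Both passed the expression filter only through their anti-CTLA-4 libraries, so their rise supports nothing here. Ly6g was at 0 in every library of the bacterium alone and was close to absent with anti-CTLA-4 as well (0 to 0.153 TPM, mean 0.038). Markers of wound-type keratinocytes summed to 411 to 1506 and 1343 to 2522 TPM, with 0 of 8 called. Those of differentiated keratinocytes summed to 18483 to 23627 and 14343 to 18218 TPM, with 1 of 10 called higher and 2 lower. Krt10, which was not called, made up most of these sums (means of 16685 and 12599 TPM). Hair follicle markers summed to 31.9 to 53.5 and 19.5 to 27.7 TPM, with 3 of 6 tested called lower. Sebaceous gland and adipocyte markers summed to 1771 to 2527 and 1288 to 1651 TPM, with 1 of 11 called lower. That gene, Scd1, made up most of these sums (means of 1701 and 1172 TPM). Basal keratinocyte, fibroblast, endothelial, muscle and cartilage sums overlapped between the groups. Of the basal markers 1 of 7 was called lower, of the tested cartilage markers 1 of 7, and of the other 3 lists 0. Krt5 and Krt14 made up most of the basal sum and had log2 fold changes of 0.15 and 0.12. Those of Krt15, Col17a1, Trp63, Itgb4 and Itga6 ran from -0.44 to -0.11, with only Col17a1 called (limma adjusted p = 0.0319). The part of these shifts in the serpin results was not tested.

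Per length of transcript, clade b led the family. Of the 10 serpin genes with the highest mean over all 9 libraries, 7 were of clade b. Serpinb5 (maspin, an epithelial serpin without known protease target) was at the top with 114 ± 4.13 RPKM in the libraries of the bacterium alone (SD, n = 5). Below it came Serpina3h, Serpinb3b and Serpinb2 with 71.9 ± 15.8, 71.3 ± 15.5 and 67.1 ± 7.15, whose spreads cover one another. Serping1, the C1 inhibitor of complement and contact proteases, followed with 55.5 ± 3.89 and Serpinb6a with 49.1 ± 2.79. The 2 length scales put some genes in different places. Serpine2 spans 64344 bases for a transcript of 2210, and its mean over all libraries was 2.06 TPM per span but 7.61 RPKM per transcript length. Serpina9 had a like mean TPM of 2.20 but only 1.35 RPKM.

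**Figure D2:**
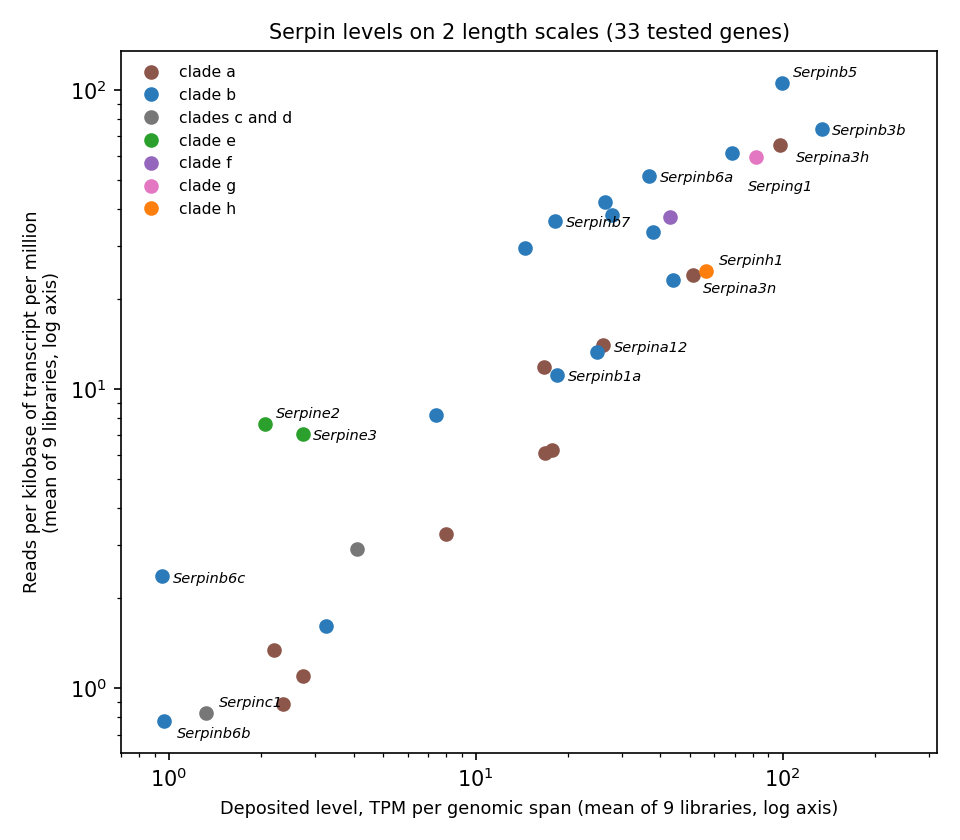
Mean level over 9 libraries of 33 tested serpin genes as deposited TPM per genomic span (horizontal, log axis) and as RPKM per transcript length from the recovered reads (vertical, log axis), coloured by clade. Serpine2, Serpine3 and Serpinb6c, which have long introns for their transcripts, lie above the run of the other genes.

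Clade a on chromosome 12 held 25 of the 26 members of that clade, of which 10 were tested, 1 rose, 2 fell and 7 were not called (30.0% called, against 11.6% of all genes). Serpina3n, an acute phase serpin that inhibits serine proteases of neutrophils and cytotoxic lymphocytes (mm10 chr12:104406708-104414329, plus strand), had 32.3, 35.4, 44.2, 27.9 and 39.9 TPM with the bacterium alone and 63.3, 63.6, 71.4 and 81.5 TPM with anti-CTLA-4. Every anti-CTLA-4 library lay above every other one. The log2 fold change was 0.95 ± 0.13 (SE), with a limma adjusted p of 0.00372, and the call held in all 9 fits that left out 1 library.

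Serpina12 and Serpina3b moved the other way in the same gene cluster. Serpina12, or vaspin, an inhibitor of the skin kallikrein Klk7 known from fat and epidermis (chr12:104028769-104044443, minus strand), had 35.4, 36.5, 25.5, 44.1 and 26.3 TPM with the bacterium alone and 16.5, 22.0, 17.5 and 10.97 TPM with anti-CTLA-4. Its log2 fold change was -0.97 ± 0.21 (SE; limma adjusted p = 0.0186). Serpina3b (chr12:104127996-104139545, plus strand) had 16.5, 20.7, 17.9, 29.3 and 18.4 TPM against 13.2, 10.1, 11.4 and 13.02 TPM, a log2 fold change of -0.72 ± 0.16 (limma adjusted p = 0.0189). For both genes the highest library was replicate 4 of the bacterium alone, and the groups were apart without it. Serpina3b missed the threshold in 1 of the 9 leave-one-out fits, with an adjusted p of 0.0521 by limma once anti-CTLA-4 replicate 2 was dropped.

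The other tested Serpina3 genes were not called. Serpina3 genes arose by repeated duplication of 1 ancestor. Serpina3a, Serpina3k and Serpina3m reached at most 0.160, 0.811 and 0.699 TPM, below the expression filter, and were not tested. Serpina3h, annotated as a pseudogene, had the highest TPM of the clade, with 102, 117, 72.2, 148 and 107 TPM against 91.1, 77.0, 80.4 and 86.5 TPM (log2 fold change -0.35 ± 0.17, limma adjusted p = 0.238). Serpina3j had 12.9 to 35.6 TPM with the bacterium alone and 9.16 to 15.7 TPM with anti-CTLA-4. Serpina3g, an intracellular inhibitor of cysteine cathepsins known from activated T cells and myeloid cells, stood at 8.21, 5.31, 6.73, 7.03 and 11.7 TPM against 8.00, 5.20, 9.22 and 10.6 TPM. Its groups covered the same range (log2 fold change 0.07 ± 0.22, limma adjusted p = 0.869). Serpina3f varied widely within both groups, from 0.529 to 5.14 and from 0.832 to 4.77 TPM, and Serpina3c, Serpina3i and Serpina9 (the last known from germinal centre B cells) changed by 0.16 to 0.25 on the log2 scale with adjusted p-values of 0.413 to 0.605.

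Serpina3n and Serpina3b have related promoters although one rose and the other fell, which is why both are shown. The 250 bases before their start sites (RefSeq, GRCm38.p6, chr12:104406458-104406707 and chr12:104127746-104127995, plus strands) were 75.3% identical over aligned bases. Capitals mark the run of 18 bases that they share, the single stretch of at least 12 identical bases.
Serpina3n: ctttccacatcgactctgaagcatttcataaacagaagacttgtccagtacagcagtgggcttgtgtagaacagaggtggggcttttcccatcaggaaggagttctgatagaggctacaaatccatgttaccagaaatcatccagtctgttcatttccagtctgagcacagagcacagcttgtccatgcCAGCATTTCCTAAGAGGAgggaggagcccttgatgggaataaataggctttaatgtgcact
Serpina3b: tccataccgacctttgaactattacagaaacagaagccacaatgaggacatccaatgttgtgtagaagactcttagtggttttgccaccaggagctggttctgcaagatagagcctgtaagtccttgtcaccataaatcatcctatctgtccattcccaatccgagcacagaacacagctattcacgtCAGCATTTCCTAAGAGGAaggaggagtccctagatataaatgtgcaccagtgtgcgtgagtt
In the 300 bases from 250 before to 50 after the start site, the promoters of Serpina3n, Serpina3g and Serpina3i held a sequence of the NF-kB type (searched on both strands). That is 4.76% of the 63 serpin promoters, as against 1.63% of all 32851 promoters, and Serpina3g and Serpina3i were not called. In Serpina3n the NF-kB type sequence began 171 bases upstream of the start. The C/EBP type TTNNGNAAT, searched on both strands, was found in Serpina3n and Serpina3b alike and in 41.3% of the 63 serpin promoters, against 11.5% of all. The shared run itself holds 1 of these C/EBP matches. Such matches describe letters and are not evidence of binding.

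Clade b occupies 2 gene clusters, and the cluster on chromosome 1 held 12 members, of which 10 were tested, 0 rose, 4 fell and 6 were not called. That is 40.0% called, against 11.6% of all tested genes. The median log2 fold change of the 10 was -0.29. Serpinb7, a keratinocyte serpin whose loss causes a human palmoplantar keratosis (chr1:107422689-107452689, plus strand), had the largest of these falls. It had 21.6, 23.9, 19.1, 27.8 and 21.5 TPM with the bacterium alone and 10.9, 13.7, 12.3 and 12.6 TPM with anti-CTLA-4, so that the groups were well apart. The log2 fold change was -0.82 ± 0.11 (SE; limma adjusted p = 0.00291), and the call held in all 9 fits that left out 1 library.

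The 3 other falls in this cluster were smaller. Serpinb5 (chr1:106861175-106883348, plus strand) had 113, 108, 107, 111 and 107 TPM against 79.2, 85.7, 95.7 and 94.0 TPM, a log2 fold change of -0.30 ± 0.07 with a limma adjusted p of 0.0188. Its libraries of the bacterium alone differed little among themselves (109 ± 2.86 TPM, SD, n = 5). Serpinb2, an inhibitor of urokinase (chr1:107511423-107525600, plus strand), had 69.4, 77.0, 64.2, 80.3 and 84.3 TPM against 55.1, 62.7, 62.8 and 58.1 TPM (log2 fold change -0.32 ± 0.09, limma adjusted p = 0.0438). Serpinb11 (chr1:107362314-107380475, plus strand) had 8.54, 8.38, 8.80, 7.63 and 8.67 TPM against 5.02, 6.63, 7.71 and 5.37 TPM (log2 fold change -0.40 ± 0.11, limma adjusted p = 0.0417), and its groups overlapped through anti-CTLA-4 replicate 3. Leaving out single libraries ended the calls of Serpinb2 and Serpinb11 in 8 of 9 fits each (highest limma adjusted p of 0.104 and 0.108), and the call of Serpinb5 in 1, that without anti-CTLA-4 replicate 2 (0.0505).

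Their neighbours Serpinb8, Serpinb13 and Serpinb10 had lower means with anti-CTLA-4 without being called. Serpinb8, whose loss causes a human peeling skin disorder, had 57.7, 49.0, 43.9, 49.0 and 45.0 TPM against 33.4, 44.0, 41.3 and 32.2 TPM (log2 fold change -0.37 ± 0.11, limma adjusted p = 0.0645). The groups overlapped by 1 pair of values, 43.9 and 44.0 TPM, and the voom fit to reads called the gene lower (limma adjusted p = 0.0252). Serpinb13, an inhibitor of cysteine cathepsins in stratified epithelium, and Serpinb10 had log2 fold changes of -0.29 ± 0.14 and -0.28 ± 0.13. Serpinb12 had 19.7, 32.0, 25.9, 31.2 and 29.4 TPM against 25.6, 31.6, 28.8 and 26.8 TPM (log2 fold change 0.04 ± 0.14, limma adjusted p = 0.876).

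**Figure D3:**
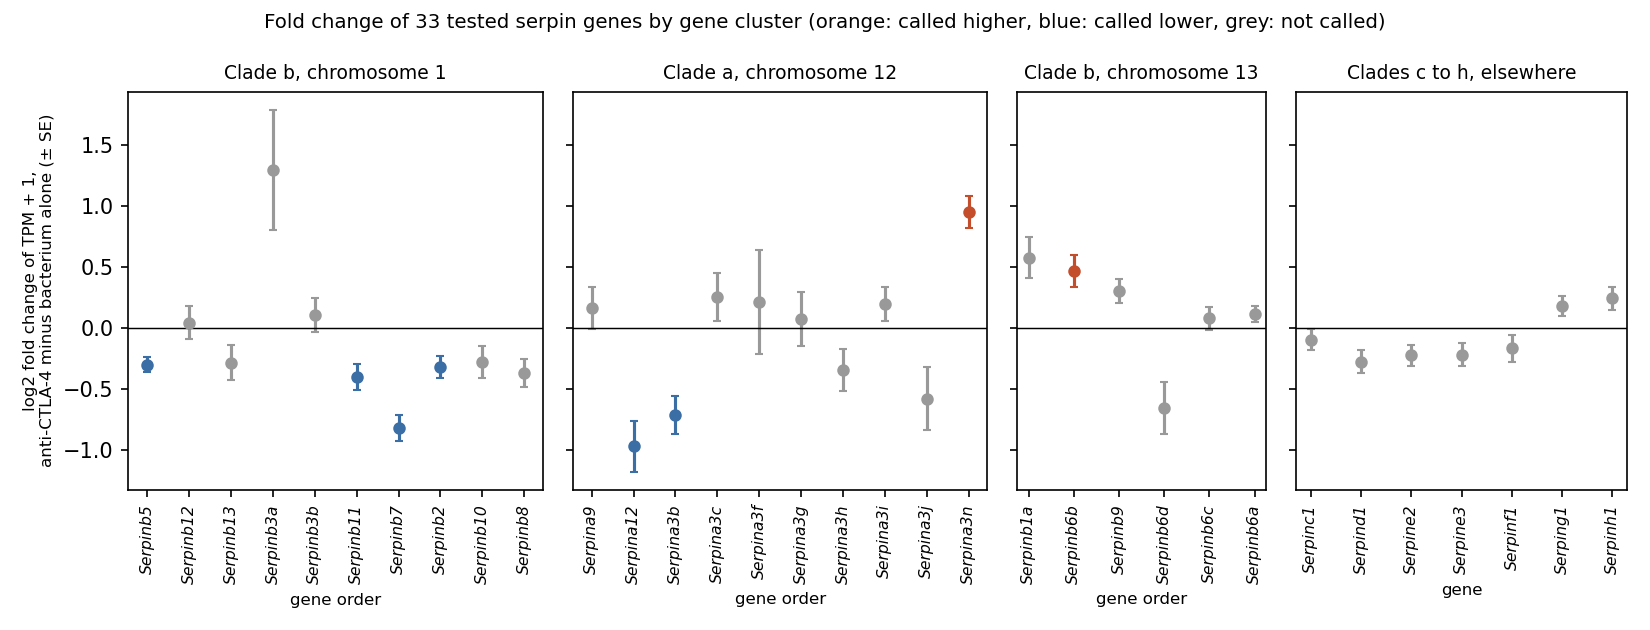
Log2 fold change of TPM + 1 (anti-CTLA-4 minus bacterium alone, vertical axis, bars ± SE) for 33 tested serpin genes in their order along each gene cluster, with the genes outside the clusters by name; orange was called higher, blue lower and grey not called. On chromosome 1 the value is negative for 7 of 10 genes and Serpinb3a stands far above its neighbours with a wide error, while on chromosome 13 it is positive for 5 of 6.

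The promoters of the 4 genes that fell in the chromosome 1 cluster share a short sequence, and they are printed for it. Each holds TGANTCA, a loose form of the pattern bound by AP-1 (a factor of Fos and Jun proteins), with any base at its centre. It reads alike on both strands. The stricter AP-1 pattern has C or G at the centre, which among these 4 genes was so in Serpinb7 alone (TGAGTCA). The 250 bases before the start are given with each match in capitals (RefSeq, GRCm38.p6, plus strands, chr1:106860925-106861174, chr1:107362064-107362313, chr1:107422439-107422688 and chr1:107511173-107511422).
Serpinb5: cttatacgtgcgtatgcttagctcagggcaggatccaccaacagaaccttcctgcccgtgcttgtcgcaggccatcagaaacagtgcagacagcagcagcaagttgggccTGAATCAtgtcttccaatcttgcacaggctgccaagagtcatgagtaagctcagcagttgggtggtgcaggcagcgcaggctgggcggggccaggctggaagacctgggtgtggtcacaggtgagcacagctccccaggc
Serpinb11: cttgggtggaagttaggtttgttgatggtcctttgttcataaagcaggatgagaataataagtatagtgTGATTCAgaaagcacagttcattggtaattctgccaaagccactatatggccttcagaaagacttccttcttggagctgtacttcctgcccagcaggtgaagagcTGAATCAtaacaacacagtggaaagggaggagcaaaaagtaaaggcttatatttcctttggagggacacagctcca
Serpinb7: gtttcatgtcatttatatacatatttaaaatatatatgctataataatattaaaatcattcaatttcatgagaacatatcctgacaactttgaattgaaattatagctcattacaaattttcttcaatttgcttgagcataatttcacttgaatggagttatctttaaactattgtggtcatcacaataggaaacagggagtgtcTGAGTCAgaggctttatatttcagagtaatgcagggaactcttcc
Serpinb2: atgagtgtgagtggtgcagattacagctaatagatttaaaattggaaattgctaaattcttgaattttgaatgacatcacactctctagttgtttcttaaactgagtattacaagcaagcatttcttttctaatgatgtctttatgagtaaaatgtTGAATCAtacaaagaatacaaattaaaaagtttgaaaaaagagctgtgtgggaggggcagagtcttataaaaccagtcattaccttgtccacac
The matches begin 140 bases before the start in Serpinb5, 181 and 76 in Serpinb11, 45 in Serpinb7 and 94 in Serpinb2. Over 300 bases, 7 of the 11 genes of the cluster with a promoter entry held the pattern, the others being Serpinb8, Serpinb10 and Serpinb12, while the promoters of Serpinb3a, Serpinb3b, Serpinb3c and Serpinb3d did not. Of these 7, only Serpinb7 and Serpinb8 held it with G at the centre, and the others had A or T there. Serpinb8, Serpinb10 and Serpinb12 were not called, so 3 of the 7 genes with the pattern did not pass the test. It was in 61.5% of the 13 promoters of the cluster, where overlapping entries of Serpinb2 count the same site, and in 7.81% of all 32851 promoters of that length. It was not the most frequent of the patterns searched there, since TATAAA was in 69.2% of the 13 promoters (13.6% of all), the 4 Serpinb3 genes included, and the C/EBP pattern was in 38.5% (11.5% of all). TTCNNNGAA, the STAT pattern, was found in 1 gene of the cluster (Serpinb2). The grainyhead pattern AACCNGTT, searched on both strands, was found in 0 of the 63 serpin promoters. Outside the cluster, TGANTCA was absent from the promoters of Serpina12 and Serpina3b, which also fell. It was present in those of Serpina1a, Serpina1b, Serpina1c and Serpina1d, which were below the expression filter.

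Within the same cluster the Serpinb3 genes, relatives of the human squamous cell carcinoma antigens and inhibitors of cysteine and serine proteases, were not called. Serpinb3a had 9.61, 8.30, 31.9, 5.06 and 28.6 TPM with the bacterium alone and 32.0, 26.5, 30.7 and 50.9 TPM with anti-CTLA-4. Replicates 3 and 5 of the bacterium alone lay inside the range of the antibody group and the other 3 well below it. The log2 fold change of 1.30 ± 0.50 was larger than that of any called serpin gene, but the limma adjusted p was 0.129, and 0.0306 in the voom fit to reads. The same 2 replicates were the highest of their group in S100a8 and S100a9 (1315 and 1457 TPM in sum, against 92.9, 96.6 and 437 TPM), in the 8 other neutrophil markers (26.7 and 27.2 TPM, against 14.8, 20.5 and 23.6 TPM) and in wound-type keratinocyte markers (1506 and 1152 TPM, against 411, 716 and 741 TPM). The part of these markers in the Serpinb3a values was not tested. Serpinb3b had 104, 112, 146, 124 and 166 TPM against 127, 127, 154 and 147 TPM and overlapped throughout (limma adjusted p = 0.692). Serpinb3c and Serpinb3d reached at most 0.410 and 0.417 TPM in any library, below the expression filter, and were not tested.

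On chromosome 13 the clade b cluster held 16 members, of which 6 were tested, 1 rose and 5 were not called, a share of 16.7% near the 11.6% of all tested genes. Serpinb6b (chr13:32965261-32979064, plus strand) had 0.661, 0.757, 1.05, 0.590 and 0.358 TPM with the bacterium alone and 1.28, 1.09, 1.72 and 1.20 TPM with anti-CTLA-4. These are 7 to 40 recovered reads per library. The log2 fold change was 0.47 ± 0.13 (limma adjusted p = 0.0490) on the scale of TPM + 1, which understates low genes, and 1.01 ± 0.26 in the voom fit to reads. Apart from the filter, 8 of 9 leave-one-out fits did not call it (highest limma adjusted p 0.108).

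Serpinb1a, an inhibitor of the neutrophil proteases elastase, cathepsin G and proteinase 3 (chr13:32842092-32851185, minus strand), just missed the threshold. It had 9.89, 15.6, 17.1, 17.0 and 15.5 TPM against 21.7, 19.4, 21.1 and 28.7 TPM. The groups did not overlap, and the log2 fold change was 0.58 ± 0.16 (limma adjusted p = 0.0519, and 0.0120 in the voom fit). Without replicate 1 of the bacterium alone, its lowest library, Serpinb1a was called (limma adjusted p = 0.0496). Serpinb9, which protects cells from granzyme B, had 2.58, 3.68, 2.48, 2.58 and 3.05 TPM against 3.73, 3.47, 3.80 and 3.98 TPM (log2 fold change 0.30 ± 0.10, limma adjusted p = 0.0796). Only replicate 2 of the bacterium alone reached into the antibody group, and without it the limma adjusted p was 0.0290. Serpinb6a, an inhibitor of cathepsin G, had 32.4, 37.5, 36.5, 38.5 and 32.9 TPM against 37.4, 38.9, 40.8 and 36.8 TPM (limma adjusted p = 0.327). Serpinb6d went the other way, with 54.5, 57.6, 36.5, 35.4 and 41.5 TPM against 42.7, 24.1, 24.0 and 23.4 TPM. Anti-CTLA-4 replicate 1 lay among the libraries of the bacterium alone, and without it the limma adjusted p of Serpinb6d was 0.0210, against 0.0784 with it.

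Serpinb1b, a relative of Serpinb1a in the same cluster, was below the filter. It was at 0 reads in all 5 libraries of the bacterium alone and had 2, 2, 2 and 4 reads with anti-CTLA-4. Against a floor of 3 reads over the group, the 10 reads amount to a level 4.18-fold higher. The counting error of the 10 reads is not included, so this is no lower bound. A fit without the expression filter called Serpinb1b (limma adjusted p = 0.00581). The gene entered that fit only through its anti-CTLA-4 libraries, and its other group had no scatter, so the call supports nothing here. Serpinb1b was singled out after its values were seen.

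**Figure D4:**
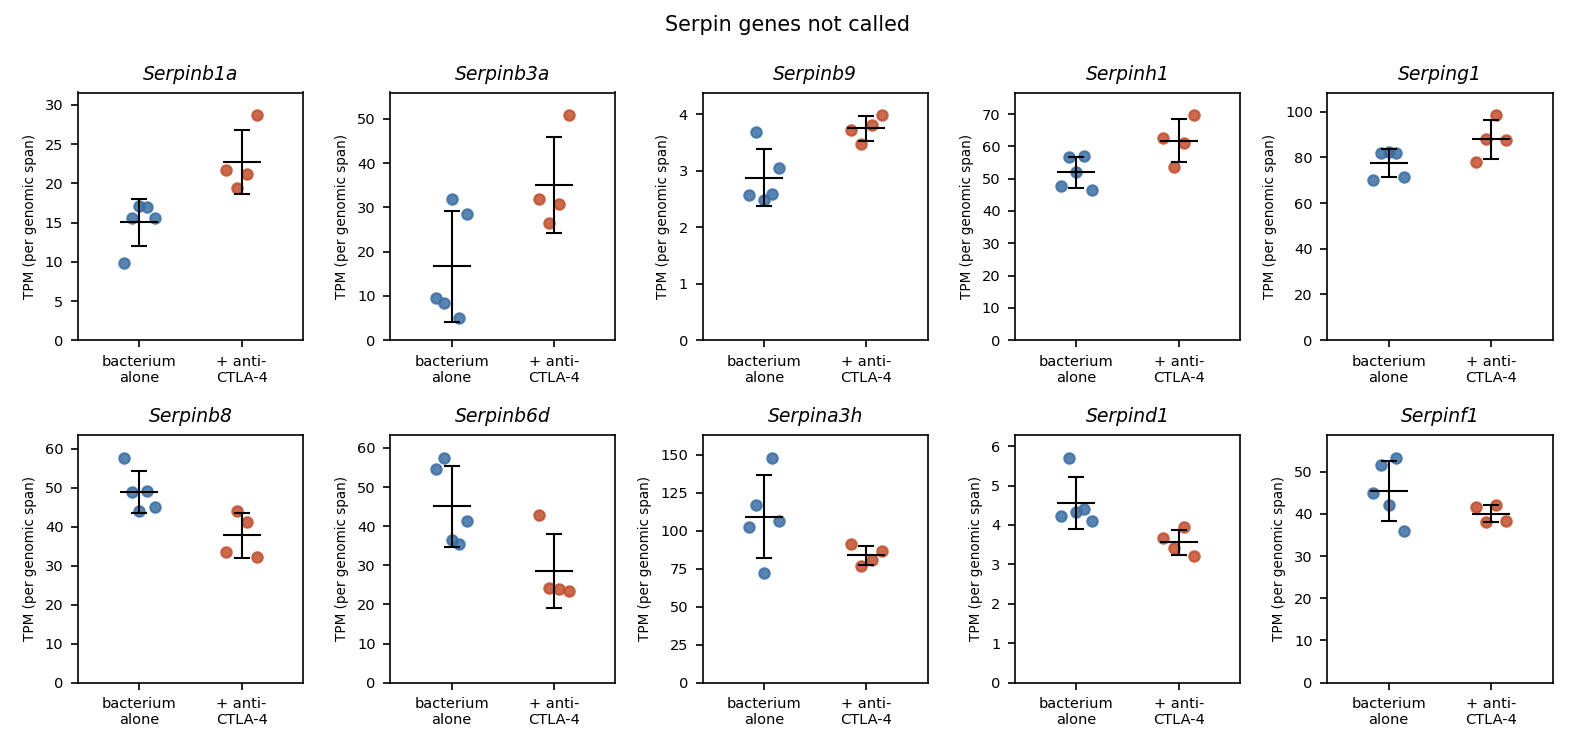
TPM per genomic span (vertical axes from 0) by library for 10 serpin genes that limma did not call; points are libraries and bars the mean ± SD, with 5 libraries of the bacterium alone and 4 with anti-CTLA-4. Serpinb1a and Serpind1 separate the groups without passing the threshold, and Serpinb3a shows 2 high libraries of the bacterium alone, at 28.6 and 31.9 TPM.

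Serpine2 and Serpine3 were tested and not called. Serpine2, protease nexin 1, had 2.46, 2.12, 1.96, 2.66 and 2.15 TPM against 1.99, 1.70, 1.82 and 1.66 TPM (log2 fold change -0.23 ± 0.08, limma adjusted p = 0.120, and 0.0460 in the voom fit). Serpine3 was not called although its groups were just apart, at 2.66 to 3.70 and 2.08 to 2.66 TPM (limma adjusted p = 0.169). Its span overlaps Ints6 on the other strand, with 10.4% of its transcript windows shared. Its values may thus include reads of Ints6, to an extent that was not measured.

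Serping1, Serpinh1 and Serpinf1, which act outside cells or in collagen folding, were among the more abundant members and were not called. Serping1 had 69.9, 82.1, 82.3, 81.8 and 71.4 TPM against 77.8, 87.9, 98.5 and 87.4 TPM, a log2 fold change of 0.18 ± 0.08 (limma adjusted p = 0.211, and 0.0322 in the voom fit). Serpinh1, the endoplasmic reticulum chaperone of collagen, had 47.7, 56.7, 52.0, 57.0 and 46.6 TPM against 62.6, 53.5, 61.1 and 69.7 TPM (log2 fold change 0.24 ± 0.09, limma adjusted p = 0.126, and 0.0326 in the voom fit). For both, 1 anti-CTLA-4 library lay within the range of the other group. Serpinf1, the pigment epithelium-derived factor of fibroblasts, had 44.9, 51.5, 42.0, 53.3 and 35.9 TPM against 41.5, 38.2, 42.2 and 38.4 TPM (limma adjusted p = 0.378).

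Serpins of blood clotting made chiefly in the liver were low. Serpind1, or heparin cofactor II, had 4.22, 5.71, 4.33, 4.40 and 4.11 TPM against 3.68, 3.42, 3.94 and 3.21 TPM, with no overlap between groups (log2 fold change -0.28 ± 0.09, limma adjusted p = 0.0883). Its span overlaps Pi4ka on the other strand, and no source used here says that counting used strand. Its values may thus include reads of Pi4ka, to an extent that was not measured. The share of its transcript windows found in transcripts of other genes was 0%. Antithrombin, Serpinc1, stood between 1.09 and 1.62 TPM in all libraries (limma adjusted p = 0.519).

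For most of the 31 serpin genes below the filter, few reads were counted. Of these, 6 were at 0 in every library (Serpina1f, Serpina7, Serpinb9d, Serpinb9e, Serpinb9g and Serpinb9h) and 25 had at least 1 read in some library. Only Serpinb1c, with 12 to 25 reads per library, reached 1 TPM anywhere, at 1.01 TPM. Serpinf2, the inhibitor of plasmin, had 1 to 6 reads. The 5 other Serpina1 genes, which encode alpha1-antitrypsin, had at most 6 reads in any library, and Serpina6 and Serpina16 at most 1. Serpini1, neuroserpin, had 27 to 46 reads per library and only 0.214 to 0.321 TPM because it spans 85030 bases. Its mean was 0.258 ± 0.0298 TPM with the bacterium alone (SD, n = 5) and 0.267 ± 0.0479 TPM with anti-CTLA-4 (SD, n = 4).

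Summed over clades, both large clades had overlapping groups on the TPM scale. Clade b summed to 554, 578, 578, 581 and 633 TPM with the bacterium alone and to 510, 522, 566 and 563 TPM with anti-CTLA-4, and clade a to 203 to 296 and 218 to 251 TPM. Per transcript length, clade b summed to 543 to 603 and 488 to 523 RPKM, so on this scale the groups did not overlap. These sums are given without a test.

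Near-identical copies could blur single members. The share of 75-base windows of the longest transcript that also occur in a transcript of another gene was at most 1.46% among the 9 called genes (Serpina3n). It was above 5% for 8 tested genes, among them Serpinb3a (8.15%), Serpina3g (8.91%), Serpina3h (12.8%) and Serpinb6a (15.2%, with the overlapping 1110046J04Rik), and 58.6% for Serpinc1, whose longest transcript shares sequence with Zbtb37. Serpinb3a and Serpinb3b transcripts were 93.1% identical over aligned bases. Among the Serpina1 genes the share was 20.3% to 73.6% apart from Serpina1f. The handling of reads that match several genes is unknown from the sources used here, which leaves the values of these genes uncertain.

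Genes of pathways in which serpins act were counted by list, to be read against the 11.6% of all tested genes that were called (7.16% higher and 4.48% lower). Of 10 tested leukocyte granule serine proteases (17 in the list), 4 rose and 0 fell (40.0% called), with the granzymes Gzmb from 6.11 ± 3.67 to 22.7 ± 3.87 TPM and Gzma from 0.355 ± 0.228 to 2.19 ± 0.877 TPM, and the mast cell chymase Cma1 from 43.6 ± 7.90 to 64.9 ± 6.89 TPM (all SD, over 5 and 4 libraries). The median log2 fold change of the tested genes was 0.25. Gzma, counted among the 4, reached at most 0.568 TPM with the bacterium alone. It passed the expression filter only through its anti-CTLA-4 libraries (1.15 to 3.15 TPM), so its rise supports nothing here. Of 10 cysteine cathepsins, 4 rose and 0 fell (40.0%), led by Ctsc, which activates granule proteases, from 19.9 ± 2.40 to 41.0 ± 4.65 TPM, and by Ctss and Ctsz. Of 9 tested genes of the complement start (12 in the list), 5 rose and 0 fell (55.6%). Among them were C1s1, a protease that Serping1 inhibits, from 35.6 ± 2.78 to 50.1 ± 6.13 TPM, and C1qa and C1qb, which are recognition subunits and no proteases.

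Of 19 tested epidermal serine proteases, 0 rose, 4 fell and 15 were not called (21.1% called), with a median log2 fold change of -0.26. Estimates of those not called ran up to 0.59 ± 0.37 for Klk6 (limma adjusted p = 0.355), a gene picked after its value was seen. The 3 with the smallest p were Htra1 (12.2 ± 1.28 to 9.59 ± 0.377 TPM), Tmprss4 (33.2 ± 2.02 to 27.1 ± 2.31 TPM) and the channel-activating protease Prss8 (41.4 ± 7.97 to 28.1 ± 3.84 TPM). The shares in the last 3 lists were nearer to that of all genes. In plasminogen activation and coagulation (17.6% called), 2 of 17 tested genes rose, the urokinase receptor Plaur (5.17 ± 0.847 to 9.28 ± 0.893 TPM) and factor X, F10, and 1 fell, tissue factor F3 (44.0 ± 10.5 to 28.2 ± 2.77 TPM). Among 26 genes of collagen and its folding, 3 rose and 1 fell (15.4%), with Plod3 from 16.7 ± 0.588 to 22.3 ± 1.75 TPM, Plod1 also higher and P3h2 lower. Of 23 tested inhibitors outside the serpin family, 3 rose and 0 fell (13.04%), namely the metalloprotease inhibitor Timp1 (8.07 ± 3.52 to 34.4 ± 5.31 TPM), Wfdc17 and Wfdc12, and their median log2 fold change was -0.12.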

How the data were processed

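RNA of whole ear skin was measured in 9 libraries. The authors deposited 1 table of TPM values per gene and library, per the file header. STAR, HOMER, DESeq2 and mm10 are named in the submitters' processing notes, with versions, roles and annotation not given in the sources used here. The deposited TPM was found to be scaled by genomic span, equal to end minus start in 99.2% of rows, so read numbers were recovered as TPM times span divided by a constant per library. The recovered depth over the listed genes was 10213769 to 13868668 reads per library, and the reads of a gene set the counting error of low genes. Replicates of a group differed by more than sampling noise (chi-square per gene of 3.63 to 12.4).

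Limma 3.58.1 in R 4.3.3 compared the groups on log2(TPM + 1) over genes that reached 1 TPM in 4 or more libraries (linear model by group, mean-variance trend, no covariate, two-sided, Benjamini-Hochberg adjustment over all 15704 genes, threshold 0.05), and the script was tested on simulated data. Fold changes on that scale understate the change of low genes. Genes described by library were those called, the member of each clade with the highest mean TPM, and 16 serpins with a known role in skin, plasma or immunity; other members named outside this rule were chosen after their values were seen. Up to 3 genes with the smallest p were named per list of partners. The members, lists and tests were chosen with earlier results of these data known. Alternatives were other pseudocounts, filters and scalings, protein-coding genes alone, other variance settings, array weights, a replicate block, each library left out, a threshold of 0.1, and, added after the data were seen, limma voom on recovered reads and lengths of GENCODE M21 transcripts. The values of 1 tested serpin gene are not reported here, and the counts include it. Promoters were matched by symbol to RefSeq sequences of GRCm38.p6 for 54 of the 65 genes. For 36 of these 54, the bases just after the start site occurred in a GENCODE M21 transcript of the gene. For the others they did not, so their start sites are less certain.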

Additional observations from a re-analysis of the deposited data

Results flagged for a closer look

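Of 50 sets of replicate values (25 serpin genes described by library, in 2 groups), 2 had a library far from the rest of its group by Dixon's test, where chance gives about 1 in 20. Serpinb1a stood at 9.89 TPM in replicate 1 of the bacterium alone, with the next value at 15.5 TPM and the highest at 17.1 TPM. Without that library the limma adjusted p of Serpinb1a was 0.0496, past the threshold, against 0.0519 with it. Serpind1 stood at 5.71 TPM in replicate 2 of the bacterium alone, with the next value at 4.40 TPM and the lowest at 4.11 TPM, and without it the limma adjusted p was 0.135, against 0.0883 with it.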

How the results depend on the processing

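The count of serpin genes called higher was 3 and moved to 5 at a threshold of 0.1, to 8 with voom on recovered reads and to 5 with transcript lengths, and it lay between 1 and 3 over the fits that left out 1 library. The count called lower was 6 and lay between 3 and 6 over those fits, with 9 in the voom fit and 8 with transcript lengths. Over all tested genes, the fits that left out 1 library called 706 to 1094 higher and 337 to 703 lower. A threshold of 0.1 called 1594 higher and 1260 lower of 15704. With the replicate number as a block, 1 was called higher (Serpina3n) and 1 lower (Serpinb7), but same-numbered libraries did not deviate together (correlations of -0.093 to 0.018, with 0 of 4 libraries closest to its own number), so the numbers were not taken to pair the samples. Over all genes, limma called 1124 higher and 704 lower, and 1302 and 1313 after scaling to a common median, 1314 and 1429 after quantile normalization and 1205 and 1306 without the 50 most abundant genes in the total. Each of these 3 scalings called 4 serpin genes higher and 7 lower, including all 9 of the main result. Serpina3n and Serpinb7 were called in all 23 alternatives. None of the 9 called genes changed direction in any alternative in which it was tested. Of the genes not called, Serpina3g turned from 0.074 to -0.035 and -0.046 on the log2 scale without replicate 2 of the bacterium alone and without anti-CTLA-4 replicate 4 (at most 0.254 over the fits that left out 1 library), and Serpinb12 from 0.043 to -0.070 and -0.012 without replicate 1 of the bacterium alone and without anti-CTLA-4 replicate 2 (at most 0.0989). Depth limits the genes with few reads, such as Serpinb6b and Serpinb1b.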
